A study of Bombyx mori with 3 samples.

Results

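The 30 non-coding RNAs (ncRNAs) described here are those of a silkworm array with the largest excess of the adult moth over the egg. They were chosen by a rule on measured values. For each ncRNA the log2 ratio of a stage over larva was averaged over its spots within each dye orientation and then over the orientations, and the 30 names with the largest adult minus egg difference were taken. Of 132 ncRNAs on the array, 122 had a value in both egg and adult, and 92 of these were not chosen. Since these values chose the members, the adult and egg ratios below are a description and were not tested. The pupal ratios were not used in the choice.

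Structured ncRNAs of this size include small nucleolar RNAs, which guide the chemical modification of ribosomal RNA, small nuclear RNAs, which form the spliceosome, and the RNA of the signal recognition particle, which takes part in protein secretion. The silkworm Bombyx mori has complete metamorphosis. The embryo develops in the egg and may arrest in diapause, the larva feeds and grows, larval tissues are rebuilt in the pupa, and the adult moth reproduces without feeding. Female moths carry formed eggs, so adult and egg RNA do not come from wholly separate tissues. The array names its ncRNAs Bm with a number and gives no RNA class, sequence or position. The RefSeq gene table held none (0) of the 30 names, and no function is assigned to any of them.

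The study profiled ncRNAs of 50 to 500 nucleotides in strain Dazao P50 on a 2-colour array. Rearing conditions were the same for the egg, pupal and adult groups. Humidity was 70%, the temperature was 25 °C, and lights were on for 14 h per day and off for 10 h. The adult group was 1 pool of male and female moths, the egg group was 1 pool of diapaused and non-diapaused eggs, and the pupal group was 1 pool covering days 1 to 9 of pupation. Each was hybridised against 1 pool of larvae from instars 1 to 5, the reference of every ratio. Each stage was read in 2 scans with the dyes swapped (Cy5 red, Cy3 green), and each ncRNA had 3 spots per scan. No stage had a biological replicate, since each was 1 pool. The errors are SDs over repeated spots of a probe, which are technical, and the number of arrays limits the precision. In pooled RNA, fewer cells of a type and less RNA per cell cannot be told apart.

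One doubt about the scans touches the adult values. The scan whose label puts adult in Cy3 and the one whose label puts pupa in Cy5 carried identical flags at all 561 spots. Over the 363 spots that both kept, the difference of their log2 red over green values had an SD of 0.0133, while 14 other scan pairs gave SDs of 0.60 to 1.21. Pupal values are therefore taken from the scan with larva in Cy5 alone, which has 1 dye orientation, and adult values of the members described are given for each orientation. The larval pool was the same in all 5 scans used, but Spearman's rho of its ncRNA signals between scans was 0.313 to 0.856 across 101 to 112 names. Intensities are for this reason compared within a scan only.

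**Figure D1:**
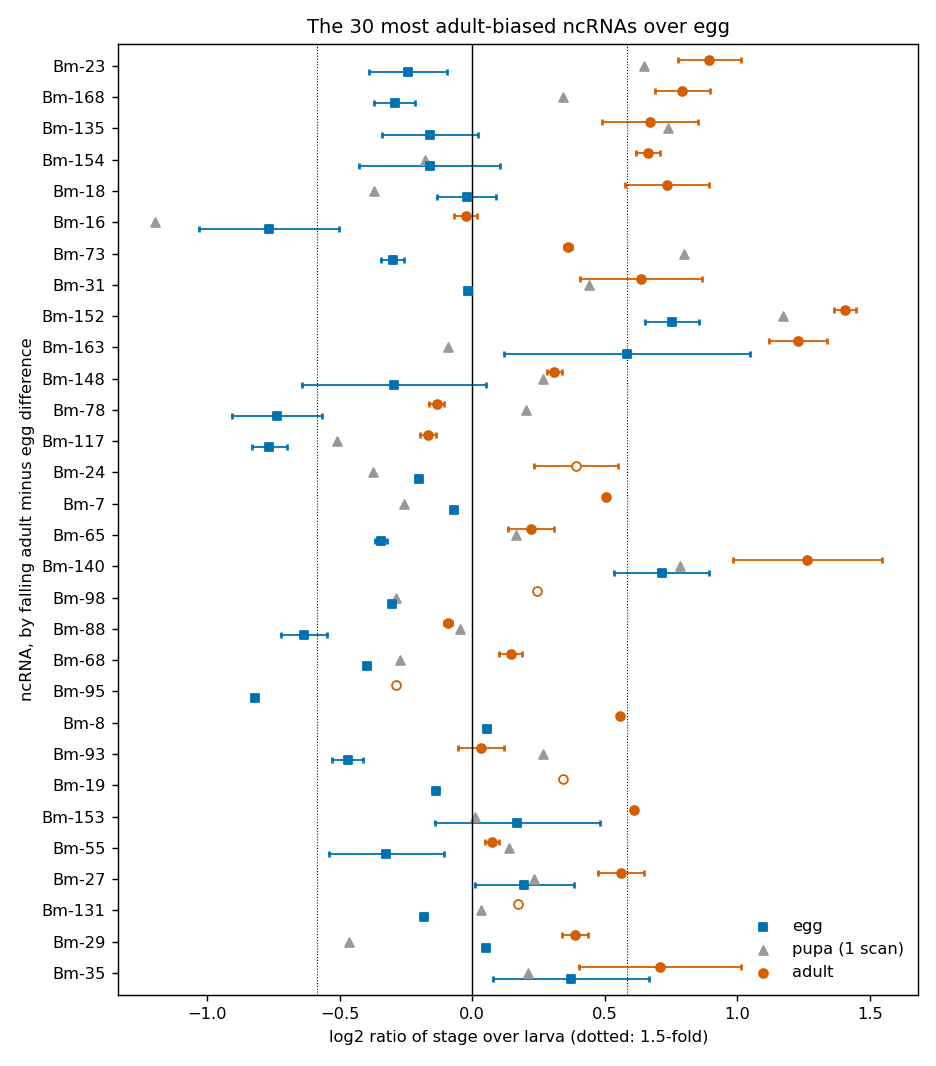
Log2 ratio over larva of the 30 ncRNAs, ordered from the largest adult minus egg difference at the top. Orange circles are adult, blue squares egg, both as means of the dye orientations, whose values are the ends of the bars; open circles mark an adult signal below background in every scan. Grey triangles are pupa from 1 scan. Bm-23 at the top stands at 0.90 in adult and -0.24 in egg, and Bm-35 at the bottom at 0.71 in adult and 0.37 in egg.

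The adult minus egg difference of the 30 members ran from 0.34 to 1.14 on the log2 scale, with a median of 0.57 (1.26-fold to 2.20-fold). It was at least 2-fold for Bm-23 and Bm-168 and at least 1.5-fold for 14 members. Of all 122 ncRNAs 1.64% passed 2-fold and 11.5% passed 1.5-fold, and the choice fixes that all of these are members. The limit fell in a continuous range. The last member, Bm-35, had a difference of 0.34 and the first name outside, Bm-177, a difference of 0.32. Bm-177 was at 0.75 in adult, from 0.59 in Cy5 and 0.91 in Cy3, and at 0.42 in egg, from 0.15 in Cy5 and 0.70 in Cy3.

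The difference divides into what adult and egg each contribute relative to larva. Adult lay above larva and egg below it for 17 members, both lay above larva for 8, and both lay below larva for 5. Without 5 members whose adult and larval signals were below background in every adult scan (Bm-24, Bm-98, Bm-95, Bm-19 and Bm-131), these counts were 13, 8 and 4 of 25. Background is the 95th percentile of a scan's negative spots in that channel. The median of the members was 0.39 in adult (0.56 over those 25) and -0.19 in egg, while over all ncRNAs measured it was -0.02 in adult and 0.04 in egg (126 names each). At a threshold of 1.5-fold, counting a name only where all its kept spots had 1 sign, 11 members were higher in adult than in larva (36.7% of 30), beside 10.3% of all 126 ncRNAs. By the same rule 5 members were lower in egg than in larva (16.7%), beside 7.14% of all 126. These shares were set by the choice and nothing is read from them. No member (0) was in both groups, and 14 were in neither. Passing both thresholds takes a larger adult minus egg difference than any name had, so this 0 is no trait of the members.

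**Figure D2:**
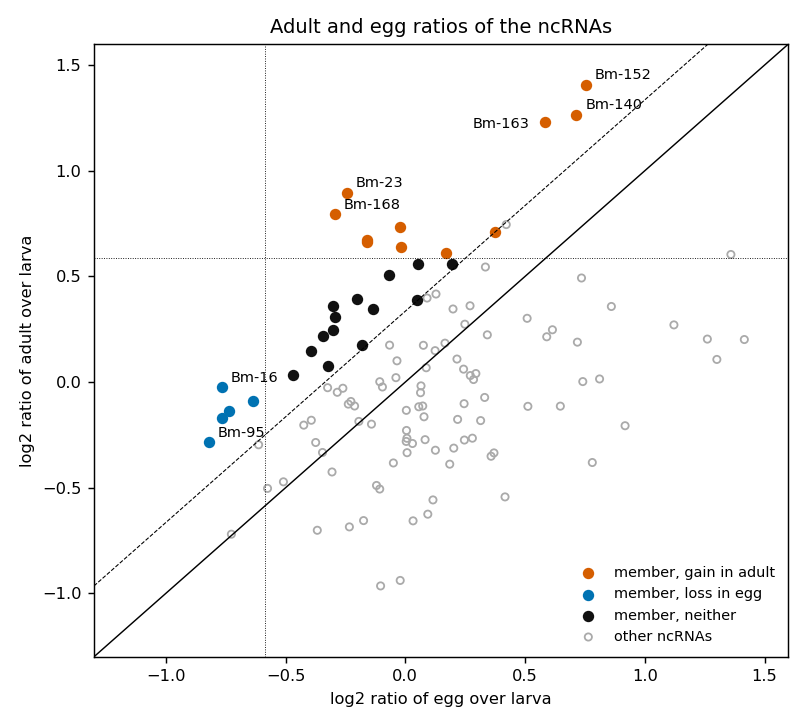
Log2 ratio of adult over larva against egg over larva for the ncRNAs measured in both stages. Filled points are the 30 members, coloured by group at 1.5-fold (dotted lines), and open points the others; the solid line marks equal ratios and the dashed line the limit of the members, a difference of 0.34. The 11 orange points lie above 1.5-fold in adult and the 5 blue points below it in egg. Bm-86, at -3.99 in adult and -2.56 in egg, lies outside the axes.

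The 11 members higher in adult than larva were Bm-23, Bm-168, Bm-135, Bm-154, Bm-18, Bm-31, Bm-152, Bm-163, Bm-140, Bm-153 and Bm-35. Their adult ratios ran from 0.61 to 1.41 (median 0.73) and their egg ratios from -0.29 to 0.75 (median -0.02). For 7 of the 11 (Bm-23, Bm-168, Bm-154, Bm-31, Bm-163, Bm-140 and Bm-153) both the adult and the larval signal exceeded background in every adult scan that measured them.

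Bm-23 had the largest difference. In the scan with adult in Cy5 its mean intensity was 7799 in adult and 4571 in larva, and with adult in Cy3 it was 22581 in adult and 11170 in larva. In the egg scans it was 2071 in egg and 2719 in larva with egg in Cy5, and 1003 in egg and 1092 in larva with egg in Cy3. Adult was the brighter channel in both of its scans and egg the dimmer channel in both of its own. The log2 ratio was 0.90 ± 0.02 in adult (SD, 3 spots; 1.86-fold over larva), from 0.78 in Cy5 and 1.02 in Cy3. It was -0.24 ± 0.13 in egg (SD, 3 spots), from -0.39 in Cy5 and -0.10 in Cy3, and 0.65 ± 0.17 in pupa (SD, 3 spots). The difference of 1.14 was nearly the same in both orientations, at 1.17 in Cy5 and 1.11 in Cy3.

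Bm-168 followed with a difference of 1.09. Its intensity was 1988 in adult and 1232 in larva with adult in Cy5, and 3321 in adult and 1785 in larva with adult in Cy3. In egg it was dimmer than larva in both scans, with 1034 in egg and 1225 in larva in one and 986 in egg and 1289 in larva in the other. Its log2 ratio was 0.79 ± 0.01 in adult, from 0.69 in Cy5 and 0.90 in Cy3, and -0.29 ± 0.17 in egg, from -0.21 in Cy5 and -0.37 in Cy3 (SD, 3 spots each). Pupa lay between them at 0.34 ± 0.16.

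Among the next members the orientations differed more. Bm-135 was at 0.67 ± 0.32 in adult, from 0.49 in Cy5 and 0.85 in Cy3, and at -0.16 ± 0.06 in egg, from 0.02 in Cy5 and -0.34 in Cy3. Its difference was 0.47 in one orientation and 1.20 in the other, the widest gap of the members measured in all 4 scans. With adult in Cy3 its signals, 476 in adult and 279 in larva from 2 spots, were below background. Bm-154, a bright member, had 56290 in adult and 36737 in larva with adult in Cy5, and 38345 in adult and 23605 in larva with adult in Cy3. It was at 0.66 ± 0.14 in adult, from 0.62 in Cy5 and 0.71 in Cy3, and at -0.16 ± 0.05 in egg, from -0.43 in Cy5 and 0.11 in Cy3. The egg part of its difference thus changed sign with the dye, and the adult part did not. Bm-18 was at 0.73 ± 0.01 in adult, from 0.58 in Cy5 and 0.89 in Cy3, and at -0.02 ± 0.04 in egg, from 0.09 in Cy5 and -0.13 in Cy3. Bm-31 was at 0.64 ± 0.04 in adult, from 0.41 in Cy5 and 0.87 in Cy3, and at -0.02 ± 0.01 in egg, the egg value from 2 spots with egg in Cy5. Bm-31 had no egg value in Cy3, and its difference within Cy5 was 0.42, against 0.65 as ranked. In both names egg lay near larva and adult above it. The larval signal of Bm-18 with adult in Cy3, 1364, was below background.

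**Figure D3:**
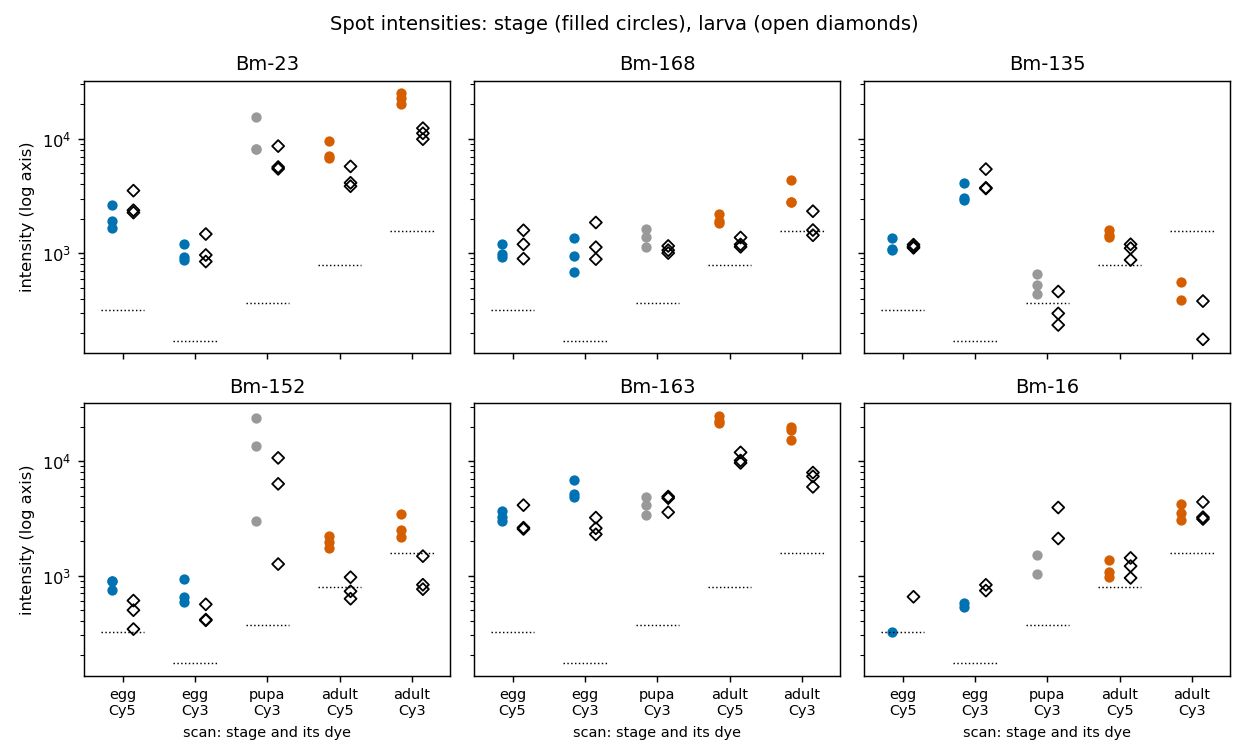
Intensity of each kept spot, on a log axis, for 6 members in the 5 scans, with the stage as filled circles and larva as open diamonds. The dotted line is background in the stage channel of that scan (95th percentile of negative spots). For Bm-23 adult spots lie above the larval ones in both adult scans and egg spots below or level with them in the egg scans; for Bm-16 the stage lies below larva in the egg and pupa scans and level with it in the adult scans.

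At 2-fold, 3 members were higher in adult than larva, Bm-152, Bm-163 and Bm-140, beside 2.38% of all 126 ncRNAs. All 3 also had egg ratios above larva, so their difference was a larger excess in adult than in egg. Bm-152 was at 1.41 ± 0.18 in adult (2.65-fold), from 1.37 in Cy5 and 1.45 in Cy3, and at 0.75 ± 0.09 in egg, from 0.86 in Cy5 and 0.65 in Cy3. With adult in Cy3 its intensity was 2719 in adult and 1023 in larva, and the larval value lay below background, as did its larval value of 481 with egg in Cy5. Bm-140 was at 1.27 ± 0.11 in adult (2.40-fold), from 0.98 in Cy5 and 1.55 in Cy3. In egg it was at 0.71 ± 0.27, from 0.53 in Cy5 and 0.90 in Cy3, the last from 1 spot. Its adult intensity was 1893 against 960 in larva with adult in Cy5, and 8604 against 3042 in larva with adult in Cy3. Bm-140 and Bm-152 were the 2 members past 1.5-fold as higher in egg too, a direction in which 13.5% of all 126 ncRNAs passed. At 2-fold 0 members were higher in egg, where 3.97% of all 126 passed. The choice favours few members higher in egg, and nothing is read from these shares.

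Bm-163 reached 1.23 ± 0.03 in adult (2.34-fold), from 1.12 in Cy5 and 1.34 in Cy3. Its intensity was 22965 in adult and 10583 in larva in the Cy5 scan, and 17922 in adult and 7097 in larva in the Cy3 scan, so that adult was clearly the brighter channel in both. In egg its ratio was 0.12 in Cy5 and 1.05 in Cy3, with a mean of 0.58 ± 0.16, just short of 1.5-fold. The adult minus egg difference was 1.0 in Cy5 and 0.29 in Cy3. The orientations thus differed far more in its egg ratio than in its adult ratio.

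The last members of this group were Bm-153 and Bm-35. Bm-153 was measured with adult in Cy5 only, at 0.61 ± 0.09, a value that keeps any dye effect, and its egg ratio was 0.17 ± 0.21, from -0.14 in Cy5 (1 spot, below background) and 0.48 in Cy3. Its difference was 0.44 as ranked and 0.75 within Cy5. Bm-35 was at 0.71 ± 0.05 in adult, from 0.40 in Cy5 and 1.01 in Cy3, and at 0.37 ± 0.08 in egg, from 0.08 in Cy5 and 0.67 in Cy3. For Bm-35 the ratio was higher with the stage in Cy3 at both stages, and the difference was 0.32 in Cy5 and 0.35 in Cy3. Its larval signal with adult in Cy3 was below background. With adult from its Cy5 scan alone the difference of Bm-35 shrank to 0.03 (-0.03 as egg minus adult). Without the doubted Cy3 scan 7 members were higher in adult at 1.5-fold in place of 11, namely Bm-23, Bm-140, Bm-152, Bm-153, Bm-154, Bm-163 and Bm-168.

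The 5 members lower in egg than larva were Bm-16, Bm-78, Bm-117, Bm-88 and Bm-95. Their egg ratios ran from -0.82 to -0.64 (median -0.77) and the adult ratios of the 4 with an adult signal above background in at least 1 scan from -0.17 to -0.02 (median -0.11). In the egg scans both channels lay above background for all 5, though the Cy5 egg signal of Bm-16 only just did. In Bm-16, Bm-78, Bm-117 and Bm-88 adult lay nearer to larva than egg did.

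Bm-16 had the largest difference of the group, 0.74. Its intensity was 1138 in adult and 1196 in larva with adult in Cy5, and 3621 in adult and 3588 in larva with adult in Cy3, which gave a log2 ratio of -0.02 ± 0.09 (SD, 3 spots), from -0.07 in Cy5 and 0.02 in Cy3. In egg it was 319 in egg and 652 in larva from 1 spot in Cy5, and 553 in egg and 784 in larva from 2 spots in Cy3. Its egg ratio was -0.77 ± 0.33 (1.70-fold lower), from -1.03 in Cy5 and -0.50 in Cy3. Bm-117 was at -0.17 ± 0.02 in adult, from -0.14 in Cy5 and -0.20 in Cy3, and at -0.77 ± 0.07 in egg, from -0.83 in Cy5 and -0.70 in Cy3. It was the member of the group with the closest agreement between orientations in egg among those measured in both. Bm-78 was at -0.13 ± 0.10 in adult, from -0.11 in Cy5 and -0.16 in Cy3, and at -0.74 ± 0.17 in egg. Bm-88 was at -0.09 ± 0.14 in adult, from -0.10 in Cy5 and -0.08 in Cy3, and at -0.64 ± 0.09 in egg. With adult in Cy3 the adult signals of Bm-117 and Bm-88 were below background, and so was the larval signal of Bm-88. Bm-95 was measured with the stage in Cy3 only, and its adult signal of 259, from 1 spot, was below background, as was the larval signal of 316 beside it. No adult fold is given for Bm-95. With egg in Cy3 alone 2 members of the group passed 1.5-fold, Bm-95 and Bm-117.

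The other 14 members passed 1.5-fold neither as higher in adult nor as lower in egg. They were Bm-73, Bm-148, Bm-24, Bm-7, Bm-65, Bm-98, Bm-68, Bm-8, Bm-93, Bm-19, Bm-55, Bm-27, Bm-131 and Bm-29. Their egg ratios ran from -0.47 to 0.20 (median -0.25), and the adult ratios of the 10 with an adult signal above background in at least 1 scan from 0.03 to 0.56 (median 0.34). Of these 10, 7 had adult above larva and egg below it, and Bm-8, Bm-27 and Bm-29 had both above larva. Bm-73 was the first of them, with 4607 in adult and 3558 in larva with adult in Cy5 and 15166 in adult and 11937 in larva with adult in Cy3. In the egg scans it was at 1253 in egg and 1552 in larva in Cy5, and at 970 in egg and 1162 in larva in Cy3. Its ratio was 0.36 ± 0.02 in adult, from 0.37 in Cy5 and 0.35 in Cy3, and -0.30 ± 0.16 in egg, from -0.34 in Cy5 and -0.26 in Cy3. Bm-68, at the 95th percentile of stage signals with adult in Cy5, was at 0.15 ± 0.02 in adult, from 0.10 in Cy5 and 0.19 in Cy3, and at -0.40 ± 0.01 in egg. Bm-7 was at 0.51 ± 0.07 in adult, from 0.51 in Cy5 and 0.50 in Cy3, and at -0.07 ± 0.13 in egg. With adult in Cy3 the signals of Bm-7, 1161 in adult and 810 in larva, were below background. Bm-93 was at 0.03 ± 0.10 in adult, from -0.05 in Cy5 and 0.12 in Cy3, and at -0.47 ± 0.18 in egg.

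Low signal and missing scans limit several of these. For the 5 members below background in every adult scan, named above, the adult ratio is no measure of a fold. The egg signal was below background in every egg scan for 0 members. Of the 30 members, 22 were measured in all 4 egg and adult scans. Bm-98, Bm-95, Bm-19 and Bm-131 had both stages in 1 orientation only. Bm-8 had adult in Cy5 (0.56) and egg in Cy3 (0.05), so any dye effect enters its difference of 0.50.

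In the 22 members measured in all 4 scans, adult exceeded egg in 22 of 22 with the stage in Cy5 and in 22 of 22 with the stage in Cy3. The differences ran from 0.09 to 1.17 in Cy5 (median 0.59) and from 0.28 to 1.27 in Cy3 (median 0.60). The gap between the orientations had a median of 0.29 and was smaller than the difference itself in 18 members, the exceptions being Bm-163, Bm-148, Bm-55 and Bm-27. Since the mean of both orientations chose the members, the choice favours this outcome. When the 30 largest differences were chosen in the Cy5 scans alone, among 98 names measured in all 4 scans, 25 of them were above 0 in the Cy3 scans, with a median of 0.43. The remaining 68 names had a median of -0.23 there, and 22 were above 0. Chosen in the Cy3 scans, 26 of 30 were above 0 in the Cy5 scans (median 0.48), against 20 of 68 of the remaining names (median -0.28). Of the 30 names chosen, 20 were members in the Cy5 choice and 22 in the Cy3 choice. The values with the stage in Cy3 include the doubted adult scan. These scans hold the same pools, so the result concerns repeat measurement and not repeat animals.

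**Figure D4:**
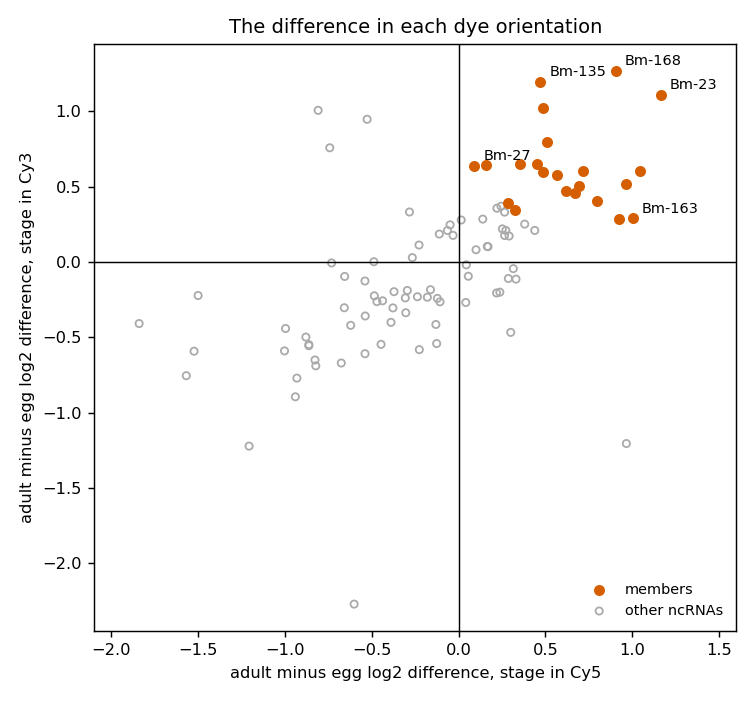
Adult minus egg log2 difference with the stage in Cy3 against the same with the stage in Cy5, for the ncRNAs measured in all 4 scans. Orange points are the 22 members and open points the other names. All 22 members lie above 0 on both axes, with Bm-23 at 1.17 in Cy5 and 1.11 in Cy3, while Bm-163 (1.0 in Cy5, 0.29 in Cy3) and Bm-135 (0.47 in Cy5, 1.20 in Cy3) lie far from equal values.

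The pupal scan with larva in Cy5 measured 27 members, all but Bm-95, Bm-8 and Bm-19. By its label it comes from a pool that the choice did not use. The choice did use the scan labelled adult in Cy3, which matches a scan labelled pupa. Whether pupal RNA entered the choice in this way was not tested. The pupal scan also shares the larval pool and has 1 orientation, so any dye effect remains in it. The median pupal ratio was 0.14 in the members, -0.08 in the 80 other ncRNAs measured in all stages, and -0.04 in all 111 measured. Bm-24 and Bm-27 were below background in both channels of this scan, and without them the median of the members was again 0.14. At 1.5-fold 5 members were higher in pupa than in larva (18.5% of 27), beside 8.11% of all 111 ncRNAs. They were Bm-152 at 1.17 ± 0.08, Bm-73 at 0.80 ± 0.06, Bm-140 at 0.78 ± 0.25, Bm-135 at 0.74 ± 0.36 and Bm-23 at 0.65 ± 0.17 (SD, 3 spots each). The larval signal of Bm-135 was below background in this scan, and with the median of repeated spots in place of the mean 3 of the 5 passed, Bm-73, Bm-140 and Bm-152. In the other direction 1 member passed, Bm-16 at -1.20 ± 0.25 (2 spots; 2.29-fold lower), beside 6.31% of all 111. With 1 pool no test of these shares was possible.

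At 2-fold the scan had Bm-152 as higher, beside 0.901% of 111, and Bm-16 as lower, beside 3.60%. Bm-152 had 13515 in pupa and 6097 in larva. These means cover uneven spots, from 3009 to 23928 in pupa and from 1260 to 10691 in larva. The log2 ratios of the spots ran from 1.10 to 1.26. Bm-152 was the member with the highest ratio in egg (0.75), pupa (1.17) and adult (1.41), so larva was its lowest stage. Bm-16 had 1278 in pupa and 3022 in larva, and was low in egg and pupa and at the larval level in adult.

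**Figure D5:**
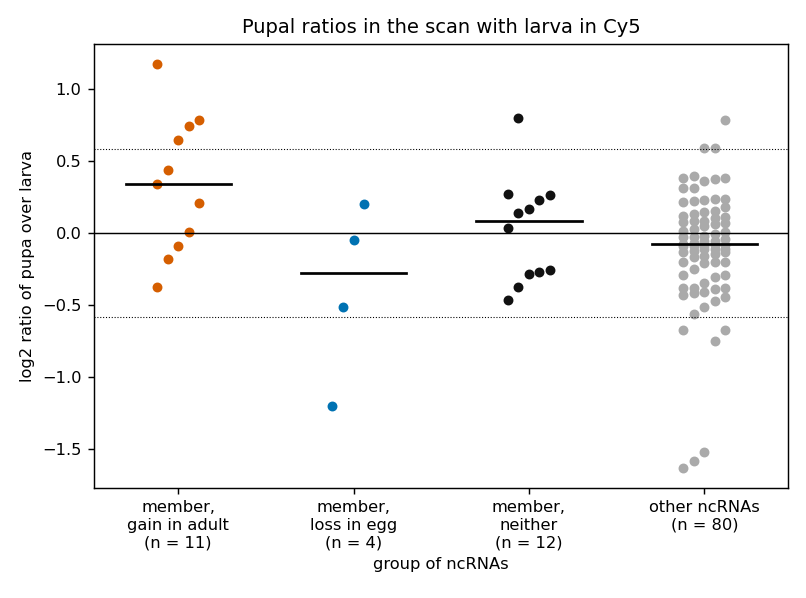
Log2 ratio of pupa over larva in the scan with larva in Cy5, for the members by group and for the other ncRNAs measured in egg, pupa and adult. Each point is 1 ncRNA, the bars are medians and the dotted lines 1.5-fold. The median is 0.34 for the 11 members higher in adult, -0.28 for 4 of the members lower in egg, 0.09 for 12 of the rest and -0.08 for the 80 other names, and the groups overlap.

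By group, the pupal ratio of the members higher in adult had a median of 0.34 and ran from -0.37 to 1.17, with 8 of 11 above 0. The members lower in egg ran from -1.20 to 0.20 (4 measured, 1 above 0), and the rest from -0.47 to 0.80 (12 measured, 7 above 0). The order of the stages was counted over 23 members. Bm-24, Bm-27, Bm-98 and Bm-131 were left out because at some stage both channels were below background in every scan. Pupa lay between egg and adult for 9 of 23, at or below egg for 8 and at or above adult for 6. With all 3 stages taken in Cy3, so that the dye is the same, the counts were 7 between, 8 below egg and 6 above adult of 21. Adult was the highest of the 4 stages, larva included, for 15 of 23 members, pupa for 5 and larva for 3. Among the other names, after the same exclusion, adult was highest for 6 of 69, pupa for 12, larva for 22 and egg for 29. The choice itself makes a member high in adult and cannot leave egg as the highest stage. The sign of the pupal ratio and the place of pupa between egg and adult were not counted among the other names. Nothing particular to the members is read from those counts.

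In 5 of the 23 members adult had the highest value and pupa the lowest: Bm-154, Bm-18, Bm-163, Bm-7 and Bm-29. The choice favours a high adult value, and this order was not counted among the other names. The adult minus pupa difference was 1.32 for Bm-163 (1.43 with both in Cy3), whose pupal intensity of 4148 was near the 4412 of larva in that scan (-0.09 ± 0.10). It was 1.11 for Bm-18, at -0.37 ± 0.19 in pupa, and 0.84 for Bm-154, at -0.18 ± 0.05 in pupa, level with its egg ratio of -0.16 ± 0.05. Bm-29 was at 0.39 ± 0.12 in adult, from 0.34 in Cy5 and 0.44 in Cy3, and at -0.47 ± 0.42 in pupa (2 spots). Bm-23, Bm-168, Bm-31 and Bm-152, by contrast, had pupal ratios of 0.65, 0.34, 0.44 and 1.17, between egg and adult. Bm-73, Bm-78 and Bm-93 had pupal ratios of 0.80, 0.20 and 0.27, above their adult ratios of 0.36, -0.13 and 0.03.

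The members' numbers on the array, which the rule did not use, ran from Bm-7 to Bm-168, with 15 of 30 at or below 77.5, the median number of the 122 names. With the numbers in order, 5 pairs of neighbours were both members, Bm-7 and Bm-8, Bm-18 and Bm-19, Bm-23 and Bm-24, Bm-152 and Bm-153, and Bm-153 and Bm-154. No count for other sets of names stands beside these pairs, and no clustering is read from them. The larval signal, the denominator of the ratios, is given as a description. In the adult scans it had a median of 1254 for members and 1043 for other names in the Cy5 scan, and 1695 for members and 1443 for other names in the Cy3 scan. In the egg scans it was 1007 for members and 981 for other names with egg in Cy5, and 1114 for members and 1323 for other names with egg in Cy3.

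The controls on the same array, the mRNAs RpL3 and actin A3 and a control named ph, had up to 12 spots kept per stage. Their values are given beside these differences, and their signals are not set against background here. RpL3 and actin A3 had no value in the pupal scan with larva in Cy5. RpL3, which encodes a large-subunit ribosomal protein, had log2 ratios of -0.27 ± 0.29 in adult and 0.89 ± 0.26 in egg (SD, 12 spots each), a difference of -1.16. Actin A3, a structural protein of the cytoskeleton, had -0.28 ± 0.30 in adult (6 spots) and -0.31 ± 0.23 in egg (12 spots), a difference of 0.03. The control named ph was at 0.84 ± 0.12 in adult and 0.54 ± 0.20 in egg, a difference of 0.31, just under that of the last member.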

How the data were processed

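Intensities of both dyes and a flag per spot and scan were deposited by the authors for egg, pupa and adult, each against larva. The dye of each channel was read per the file headers. How background was corrected and dyes were normalized, and by which software, is not given in the sources used here. In the 5 scans used, kept ncRNA spots had a median log2 ratio of -0.04 to 0.10, so the deposited intensities were taken as normalized between dyes. Averaging the scans with a flag of 0 or above gives back the log2 ratio that the authors deposited for each spot, within 1.3e-09. The p-value they deposited beside it has no stated test and was not used. Their value table (log2, 1 value per ncRNA) was an alternative.

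Log2 stage over larva was computed without a pseudocount from spots with a flag of 0 or above, in Python 3.11.15 with pandas 2.3.3 and numpy 2.4.6. Spots were averaged within an orientation, then the orientations. A stage SD is over spots, each the mean of its kept scans. Ratios already normalized received no loess. Each stage is 1 pool, so no test was run. A call needs 1.5-fold or 2-fold and 1 sign in every kept spot and scan. Background is the 95th percentile of 108 negative spots per scan and channel. Intensities in the text are means of kept spots.

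Ratios per scan are given for the 10 largest differences, members past 2-fold, those with the highest and lowest pupal ratio, and the names at the limit. Other members given with values were picked after their values were seen. The members, groups and thresholds were chosen with earlier results of these data known. The averaging and ranking code was checked on simulated spots, where it had to return known ratios when no spot noise was added. Every simulated name had both orientations, unlike the data. This checks the code and does not measure the accuracy of the ranking.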

Additional observations from a re-analysis of the deposited data

Results flagged for a closer look

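The scan labelled as pupa in Cy5 was left out of the pupal values. As labelled, the 28 members measured there had a median log2 ratio of pupa over larva of -0.34, and 4 were above 0, while the median of all 120 ncRNAs measured there was 0.03. This is the scan whose spots match the scan labelled as adult in Cy3, where the median of the members was 0.35 over larva. The labels put larva in opposite dyes, so matching red over green values give ratios of opposite sign. The scan labelled as adult in Cy3 was used to choose the members. The values above are thus set by the choice and are no separate result on pupa. Whether the scan labelled as pupa in Cy5 holds pupal RNA was not tested.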

How the results depend on the processing

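The set, its medians and the counts at a threshold were recomputed under other settings. These settings reuse the egg and adult scans that chose the members, which favours overlap and steady egg and adult medians. Under each of the other settings 20 to 29 of the 30 members were again among the 30 largest differences. The settings were centring of each scan, each orientation alone, flagged spots kept (24), the table of values from the authors (29), no spots in the dimmest 25% (23), medians over repeated spots, a pseudocount of 50, and names in both orientations only (22). Adult from its Cy5 scan alone (25) was added after the data were seen. The lowest, 20, came from choosing with the stage in Cy5 among names in all 4 scans. Only 22 members were measured in all 4 egg and adult scans, so settings limited to such names could keep at most 22. The median of the members ran from 0.34 to 0.45 in adult, from -0.27 to -0.18 in egg and from 0.13 to 0.18 in pupa.

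At 1.5-fold 11 members were higher in adult, against 7 with the stage in Cy5 alone and 7 with adult from its Cy5 scan and egg from both. At 2-fold there were 3, against 5 with the stage in Cy3 alone (Bm-23, Bm-35, Bm-140, Bm-152 and Bm-163). Lower in egg were 5, against 2 with the stage in Cy3 alone. Higher in pupa were 5, against 3 with the median of repeated spots. The cause was not tested. Of 118 recomputed differences of the 12 members described per scan, 97 moved by less than their spot SD, 21 moved further and 0 changed sign. Restricting to names in both orientations cannot move a value, and those results count among the 97. These members were chosen for this difference, which favours an unchanged sign. No paired analysis was possible because each stage is 1 pool.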

Other observations

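The larval pool was the same in every scan, yet the place of some members among the larval signals differed widely between scans. The larval signal of Bm-135 lay at the 84th percentile of the ncRNAs measured with egg in Cy3, at the 62nd with egg in Cy5, at the 49th with adult in Cy5, at the 4th with adult in Cy3 and at the 5th in the pupal scan. That of Bm-152 lay at the 88th percentile in the pupal scan and between the 14th and the 40th in the other 4 scans. Bm-154, by contrast, stayed between the 83rd and the 97th. Over the 22 members measured in all 5 scans the range of these percentiles had a median of 48.9 points, beside 39.4 points over 70 other names. The ratios are formed within a scan, and the part of these shifts in them was not tested.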
